A study of Mus musculus with 16 samples.

Results

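The nuclear genes for the subunits of the respiratory chain and of ATP synthase were described in mouse hearts that overexpressed the receptor tyrosine kinase ERBB2, with and without a myocardial infarction. Genes were taken from the deposited expression table by symbol, as those whose names begin with Nduf followed by a, b, c, s or v and a digit, with Uqcr, with Cox and a digit from 4 to 8, or with Atp5, together with Sdha, Sdhb, Sdhc and Sdhd. Of 24421 genes in the table, 84 matched, and 82 of these had a mean of 10 or more normalized reads over the 16 libraries and were kept. The remaining matches, Cox7b2 and Cox8c, stood at no more than 5.2 and at 0 normalized reads in each library. The 82 members comprise 35 of complex I, 4 of complex II, 8 of complex III, 18 of complex IV and 15 of complex V, along with Atp5s and Atp5sl, which carry the Atp5 name but are not subunits. Complex IV here includes Ndufa4 and Ndufa4l2, since Ndufa4 is a subunit of that complex despite its name, and Cox7a2l, a factor that joins complexes III and IV. All 82 passed the filter on low values and were tested.

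There were 4 groups of 4 hearts from mice of about 3 months. Wild-type (WT) sham and WT infarcted (MI) hearts were the controls, and the ERBB2 overexpression (OE) hearts were likewise taken after sham surgery or after permanent tying of the left anterior descending coronary artery, all of them 2 weeks after the operation. The labels do not state the promoter or cell type that drives the ERBB2 transgene, its species of origin, or the sex of the animals, and OE sham and WT MI hearts share their WT sham controls. Each label carries an RA number whose meaning is not stated, and 4 libraries, replicates 3 and 4 of WT sham, 4 of OE sham and 4 of WT MI, have one above 12. Reads counted over genes, as recovered from the deposited normalized values, numbered 11939093 to 14886191 in WT and 14998464 to 17468914 in OE libraries. Size factors ran from 0.774 to 0.949 in WT and from 1.05 to 1.30 in OE libraries. Counted depth thus went with genotype, and its part in the member results was not tested. Erbb2 itself stood at 245 to 260 normalized reads in WT sham, 204 to 307 in WT MI, 792 to 2530 in OE sham and 793 to 2504 in OE MI hearts (OE against WT, exact permutation p = 0.0286 in sham and in infarcted hearts, n = 4 each, 2-sided).

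The respiratory chain passes electrons from NADH at complex I and from succinate at complex II through coenzyme Q to complex III, then through cytochrome c to complex IV, where oxygen is reduced. Complexes I, III and IV pump protons out of the mitochondrial matrix, and complex V lets them return through its membrane part while its catalytic head makes ATP. The adult heart is packed with mitochondria and takes most of its ATP from this route. Several small subunits of complex IV exist as pairs, in which a muscle isoform (Cox6a2, Cox7a1 and Cox8b in the mouse) takes the place of a common one (Cox6a1, Cox7a2 and Cox8a) in heart and skeletal muscle. The subunits encoded in the mitochondrial genome were not analysed here.

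Transcripts of all 5 complexes were less abundant in OE hearts. Summed over the 82 members, the level was 851431 ± 51723 normalized reads in WT sham and 486968 ± 44086 in OE sham hearts (mean ± SD, n = 4 each), so that OE sham hearts held 57.2% of the WT level. WT MI hearts held 734791 ± 56830 and OE MI hearts 441135 ± 16053 normalized reads, 60.0% of their WT counterparts. As a share of recovered reads the members took 5.37 ± 0.21% and 3.42 ± 0.22% in sham hearts (WT and OE) and 4.85 ± 0.23% and 3.19 ± 0.14% in infarcted hearts. No OE library reached the level of any WT library in any of the 5 complexes. The OE sham sum was 55.8% of WT for complex I, 49.4% for complex II, 58.9% for complex III, 57.9% for complex IV and 58.6% for complex V. In infarcted hearts these shares were 58.5%, 53.3%, 62.7%, 58.2% and 62.2%.

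**Figure D1:**
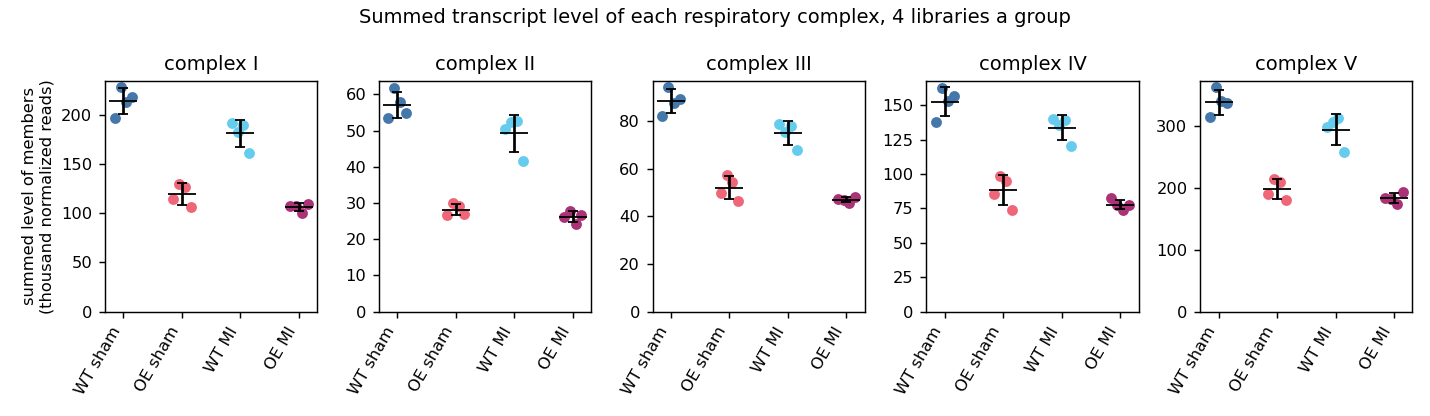
Summed normalized reads (linear axis from 0) of the members of each complex in the 16 libraries; each point is 1 library, and the bars give the mean and SD of 4. In each panel both OE groups lie below both WT groups, as in complex V, where the means are 338669 in WT sham and 198409 in OE sham hearts.

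Gene by gene, 77 of the 82 members fell in OE against WT sham hearts and 0 rose (limma on log2(value + 1), Benjamini-Hochberg adjusted p under 0.05 over 14298 genes), whereas 24.5% of all genes tested fell and 24.9% rose. The median log2 fold change was -0.80 over the members and 0.01 over all genes. The authors' deposited table also gives 77 of the 82 as lower in sham hearts, against 18.0% of the genes that have an adjusted p there. Scaling by library totals rather than the deposited size factors shifted the median over all genes to 0.17, changed the split over all genes from 3554 higher and 3497 lower to 5166 and 2379, and left 74 members lower with a median of -0.65. In infarcted hearts 77 members fell and 0 rose, where 16.3% of all genes fell and 15.5% rose, and the median was -0.72 over the members. The authors' deposited table gives 77 lower there too, against 11.9% of its genes. With library totals the median over all genes was 0.14 in infarcted hearts, and the split went from 2218 higher and 2336 lower to 3848 and 1558, with 75 members lower. All 4 OE libraries lay below all 4 WT libraries for 75 members in sham hearts, against 24.3% of all genes, and for 77 in infarcted hearts, against 13.6%.

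Other transcripts moved along with these. The summed level of 20 cardiomyocyte contractile genes ran from 1510700 to 1737162 normalized reads in WT sham and from 1004503 to 1221813 in OE sham hearts, and 13 of the 20 fell while 3 rose, from Tcap, a protein of the Z-disc (log2 fold change -1.82), to Xirp2, an actin-binding protein of muscle (2.11). The sum of 12 fibroblast markers ran from 60742 to 75054 in WT sham and from 139766 to 171661 in OE sham hearts, and 8 of the 12 rose while 1 fell, from Gsn, an actin-severing protein (-0.80), to the collagen gene Col1a1 (2.94). Macrophage markers counted 6 of 12 higher, endothelial markers 1 higher and 4 lower of 12, and white fat markers 1 of 10 lower, while none of 9 lung or 5 thymocyte markers passed in sham hearts. Beside these counts, 24.9% of all genes tested rose and 24.5% fell in sham hearts. In whole-heart RNA a smaller share of cardiomyocytes and less of a transcript per cardiomyocyte cannot be told apart. The ratio of the summed members to the summed contractile genes was 0.521 ± 0.014 in WT sham and 0.430 ± 0.0047 in OE sham hearts, and 0.506 ± 0.027 in WT MI and 0.430 ± 0.027 in OE MI hearts. The part of the fibroblast and contractile changes in the member results was not tested.

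**Figure D2:**
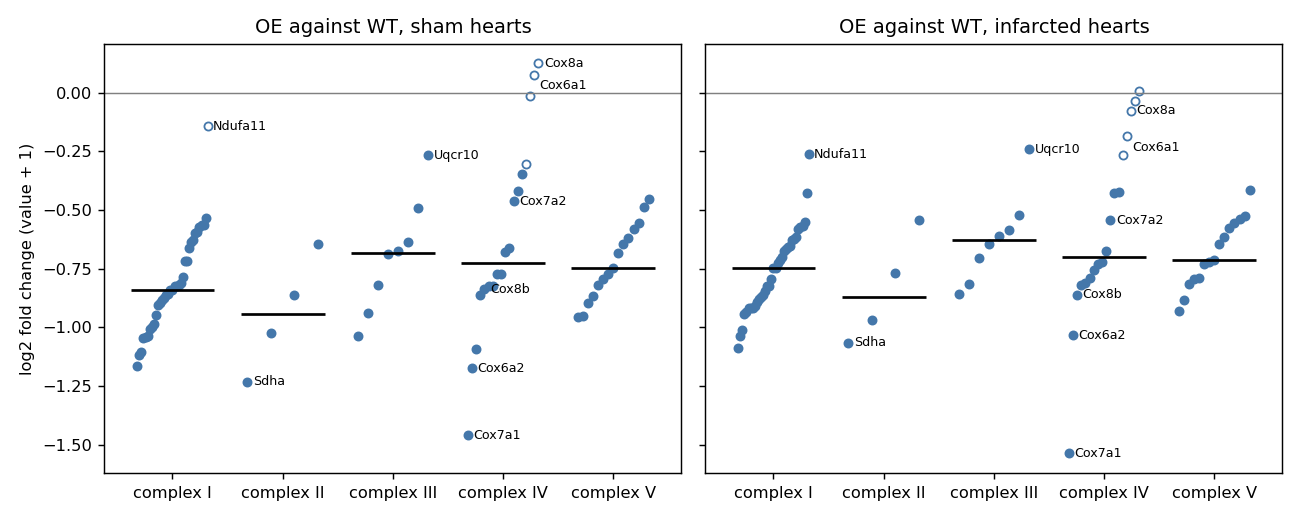
Log2 fold change (value + 1) of OE against WT hearts for the subunits of each complex, in sham hearts on the left and infarcted hearts on the right; each point is 1 gene, filled where the adjusted p is under 0.05, and lines give the median of a complex. Only Ndufa11 of complex I and 4 members of complex IV are open in sham hearts, and 5 members of complex IV are open in infarcted hearts.

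In complex I, which oxidises NADH, 34 of 35 members fell in sham and 35 in infarcted hearts, with medians of -0.84 and -0.75. The 16 members of the peripheral arm, which holds the flavin and the iron-sulfur clusters, had medians of -0.89 and -0.84, and the 19 of the membrane arm -0.72 and -0.68. The 7 subunits of the catalytic core fell in both settings, with medians of -0.90 and -0.84. Ndufs1, the largest subunit and a carrier of iron-sulfur clusters, had 12924, 14534, 13707 and 13283 normalized reads in WT sham hearts and 5637, 6665, 6445 and 6348 in OE sham hearts. Every OE sham heart lay below every WT sham heart, and the log2 fold change was -1.12 (SE 0.09, limma adjusted p = 1.68e-07). Ndufs6, an accessory subunit that carries zinc in the peripheral arm, was the lowest of the complex in both settings, with a log2 fold change of -1.16 in sham hearts (adjusted p = 2.21e-07) and -1.09 in infarcted hearts (adjusted p = 1.97e-06). Its libraries ran from 4143 to 4912 normalized reads in WT sham and from 1776 to 2333 in OE sham hearts. Ndufv1, which binds NADH and the flavin, fell by 0.82 on the log2 scale in sham hearts.

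Ndufa11, a membrane-arm subunit, stood apart from the other members of complex I. Its WT sham hearts held 4312, 4779, 4714 and 4966 normalized reads and its OE sham hearts 4084, 4754, 4558 and 3657. The groups overlapped, and the log2 fold change was -0.14 (SE 0.08, limma adjusted p = 0.149). In infarcted hearts Ndufa11 ran from 3759 to 4373 in WT and from 3274 to 3621 in OE hearts, with a log2 fold change of -0.26 (adjusted p = 0.0198). That call was lost with library totals, where the log2 fold change was -0.13 (adjusted p = 0.150). It was also lost at log2 fold changes of like size with terms for lung and thymus marker levels (-0.31, adjusted p = 0.136), without WT MI replicate 1 (-0.25, 0.0510) and without WT MI replicate 3 (-0.24, 0.0544).

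Complex II, succinate dehydrogenase, is also an enzyme of the tricarboxylic acid cycle, and its 4 subunits fell in both settings, with medians of -0.94 in sham and -0.87 in infarcted hearts. Sdha, the flavoprotein that oxidises succinate, had 22079, 25647, 25392 and 22823 normalized reads in WT sham hearts and 9469, 10531, 10482 and 10296 in OE sham hearts. The log2 fold change of -1.23 (SE 0.10, limma adjusted p = 2.21e-07) was the second most negative of the 82 members in sham hearts. Sdhb, the iron-sulfur subunit, followed at -1.03, and the membrane anchors Sdhc and Sdhd at -0.86 and -0.65. In infarcted hearts the order was the same, with Sdha at -1.07, Sdhb at -0.97, Sdhc at -0.77 and Sdhd at -0.54.

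Complex III transfers electrons from coenzyme Q to cytochrome c, and all 8 of its members fell in sham and in infarcted hearts, with medians of -0.68 and -0.63. The core subunit Uqcrc1 had a log2 fold change of -1.04 in sham and -0.86 in infarcted hearts, and Uqcrfs1, the Rieske iron-sulfur protein, -0.94 and -0.81. Uqcr10, a small subunit beside cytochrome c1, changed least. It held 3848, 4495, 4376 and 4411 normalized reads in WT sham hearts and 3541, 3769, 3766 and 3169 in OE sham hearts. The highest OE heart lay below the lowest WT heart by a narrow margin, and the log2 fold change was -0.27 (SE 0.07, limma adjusted p = 0.00439), a call lost with library totals (-0.11, adjusted p = 0.0813) and with RA numbers of 12 or below (-0.17, 0.104). In infarcted hearts Uqcr10 had -0.24 (adjusted p = 0.0134), a call lost with library totals at a smaller log2 fold change (-0.11, adjusted p = 0.0999) and with lung and thymus terms at a larger one (-0.30, 0.0959).

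Complex V held 15 members, and each fell in both settings, with medians of -0.75 and -0.71. Atp5b and Atp5a1 encode the beta and alpha subunits of the catalytic head and were the most abundant members. Atp5b had 93902, 104583, 98535 and 96296 normalized reads in WT sham and 59219, 65949, 62662 and 57365 in OE sham hearts, a log2 fold change of -0.68 (SE 0.10, limma adjusted p = 3.08e-05). Atp5c1, the gamma subunit of the rotating stalk, had the most negative value in sham hearts (-0.96), and Atp5d, the delta subunit of that stalk, the least negative (-0.45). The 3 genes Atp5g1, Atp5g2 and Atp5g3 encode the same mature c subunit of the membrane ring with different targeting peptides. Atp5g1 fell by 0.90, Atp5g3 by 0.75 and Atp5g2 by 0.62 on the log2 scale in sham hearts. As many as 87.2% of the 60-base stretches of the Atp5g2 transcript also occur in transcripts of other genes, which are 2 pseudogenes. Some of its reads may thus be lost or misplaced in counting, which was not tested. Of the 82 members, 58 share under 10% of such stretches and 3 share over 50%, the others of these being Atp5l (82.9%) and Cox7c (52.0%).

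Complex IV, cytochrome c oxidase, was the most varied. Of its 18 members, 14 fell in sham and 13 in infarcted hearts, the medians were -0.73 and -0.70, and the SD of the log2 fold changes over its members was 0.43 in sham hearts against 0.21 in complex I, 0.25 in complexes II and III and 0.16 in complex V. Both the most negative and the 2 highest values of all members in sham hearts belong to it. Cox4i1, the regulatory subunit 4 found in most tissues, fell by 0.86, and the structural subunits Cox5a and Cox5b fell by 0.66 and 0.83 on the log2 scale. The isoform pairs held the extremes. The 3 muscle isoforms with a pair fell, with log2 fold changes of -1.46 for Cox7a1, -1.17 for Cox6a2 and -0.84 for Cox8b, while of their common partners Cox7a2 fell (-0.46) and Cox6a1 and Cox8a had log2 fold changes of 0.08 and 0.12 that did not pass the test.

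Sequences before the starts of these genes are shown as a description, and their part in the expression changes was not tested. They are the 200 bases upstream of an annotated start from RefSeq, build GRCm38.p6 (mm10), 5′ to 3′ on the strand of the gene. For Cox7a2 the start used lies inside the span of the gene, chr9:79755241-79771422, and is not its outermost one. Capitals mark matches on either strand to motifs of factors known to regulate respiratory or muscle genes: GCGCANGCG for NRF1, CCGGAAG for ETS factors such as GABPA, AAGATGG for YY1, AAGGTCA for the estrogen-related receptors, GGGCGG for SP1, TATAAA for the TATA box and CANCTG for the E-box.
Cox7a1, chr7:30183971-30184170, plus strand: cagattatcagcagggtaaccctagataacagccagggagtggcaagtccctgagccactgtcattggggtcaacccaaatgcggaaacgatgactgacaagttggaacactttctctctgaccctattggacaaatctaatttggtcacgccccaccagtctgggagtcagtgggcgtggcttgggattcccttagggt
Cox8b, chr7:140900447-140900646, minus strand: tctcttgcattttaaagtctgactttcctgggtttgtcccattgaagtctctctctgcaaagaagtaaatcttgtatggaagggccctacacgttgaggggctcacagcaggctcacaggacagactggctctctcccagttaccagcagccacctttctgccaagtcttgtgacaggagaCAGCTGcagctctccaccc
Cox7a2, chr9:79759854-79760053, minus strand: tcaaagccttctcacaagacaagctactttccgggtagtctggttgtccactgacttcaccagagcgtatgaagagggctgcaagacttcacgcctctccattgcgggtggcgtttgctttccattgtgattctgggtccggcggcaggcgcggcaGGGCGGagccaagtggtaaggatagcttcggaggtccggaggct
Cox8a, chr19:7217617-7217816, minus strand: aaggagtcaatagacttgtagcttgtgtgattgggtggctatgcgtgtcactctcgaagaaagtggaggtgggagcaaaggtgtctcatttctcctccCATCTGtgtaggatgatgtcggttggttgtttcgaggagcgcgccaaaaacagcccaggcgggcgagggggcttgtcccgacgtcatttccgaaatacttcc
Cox6a1, chr5:115348959-115349158, minus strand: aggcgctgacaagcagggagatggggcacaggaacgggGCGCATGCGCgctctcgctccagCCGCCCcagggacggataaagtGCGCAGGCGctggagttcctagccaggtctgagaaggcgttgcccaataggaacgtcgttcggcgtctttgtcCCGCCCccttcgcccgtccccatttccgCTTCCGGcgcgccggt
The windows of the muscle isoforms Cox7a1 and Cox8b held 7 and 2 CpG dinucleotides in the 300 bases from 250 before to 50 after the start, and those of Cox7a2, Cox8a and Cox6a1 held 20, 19 and 32. In Cox6a1, 3 matches to the NRF1 motif were found, a pair of which overlap in the first run of capitals. No window of Cox6a2 was in the table used. Cox7a1, Cox6a2 and Cox8b all lie on chromosome 7, at chr7:30184171-30186030, chr7:128205435-128206366 and chr7:140898942-140900446 in the same build. Other members lie on that chromosome too, such as Cox6b1 (chr7:30616971-30626114) and Uqcrc2 (chr7:120635189-120659523). A match is a run of letters and not evidence of binding.

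Across the 68 members with such a window, the NRF1 motif was found in 29.4%, against 7.03% of the windows of all 27025 genes. The ETS motif was found in 23.5% against 9.93%, YY1 in 17.6% against 7.28% and the estrogen-related receptor motif in 11.8% against 5.38%. SP1 matches were found in 39.7% of the members' windows and 38.2% of all. TATAAA was found in 8.82% against 15.7% and the E-box in 39.7% against 54.6%. The median GC content of the windows was 57.8% for the members and 52.8% for all genes, with medians of 19 and 7 CpG dinucleotides.

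Subunit 6a showed the widest gap between partners in sham hearts. Cox6a2, the muscle isoform, held 26076, 31179, 28085 and 26381 normalized reads in WT sham and 10726, 14149.8, 14139 and 10810.0 in OE sham hearts. Cox6a1, the common isoform, held 1826, 1839, 2091 and 2423 in WT sham and 2508, 2300.2, 2141 and 1702 in OE sham hearts. The muscle isoform separated the groups and the common one overlapped, and the ratio of Cox6a2 to Cox6a1 went from 13.9 ± 2.50 to 5.85 ± 1.06. On the log2 scale the ratio differed by -1.25 in sham hearts (SE 0.20) and by -0.85 in infarcted hearts (SE 0.14), with no overlap in either. Per kilobase of transcript, Cox6a2 still stood well above Cox6a1 in OE sham hearts, at 18318 against 3787 normalized reads per kilobase, compared with 41074 against 3581 in WT sham hearts.

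In subunit 7a, Cox7a1 went from 8029, 9352, 9617 and 9933 normalized reads in WT sham to 3072, 3661, 3672 and 3032 in OE sham hearts, and to 2987, 2995, 2345 and 3043 in OE MI hearts against 9296, 7921, 8373 and 7358 in WT MI hearts. Its log2 fold changes of -1.46 (SE 0.10, limma adjusted p = 9.25e-08) and -1.54 (SE 0.10, adjusted p = 6.41e-07) were the most negative of the 82 members in both settings. Cox7a2, the common isoform, held 3973, 4878, 4895 and 4902 in WT sham and 3636, 3922, 3580.3 and 2533 in OE sham hearts. Cox7a2 fell as well, by 0.46 in sham and 0.54 in infarcted hearts on the log2 scale, and the sham call was lost with RA numbers of 12 or below (-0.25, adjusted p = 0.0569). The ratio of Cox7a1 to Cox7a2 went from 1.98 ± 0.051 in WT sham to 1.0002 ± 0.15 in OE sham hearts, and from 1.93 ± 0.23 to 0.972 ± 0.12 in infarcted hearts. The log2 differences were -0.998 (SE 0.11) and -0.99 (SE 0.13), without overlap.

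In subunit 8, Cox8b, the muscle isoform of the mouse, went from 6791, 8449, 7768 and 8513 normalized reads in WT sham to 4060.1, 4879.8, 5019 and 3747 in OE sham hearts. Cox8a, the common isoform, held 1834, 2072, 2144 and 2114 in WT sham and 2745, 2464, 2270.2 and 1582 in OE sham hearts. OE sham replicate 4 was the lowest of the OE sham hearts for Cox8a, Cox6a1 and Cox7a2. It was also the lowest of them in the summed level of all members, at 434867 normalized reads against 467185 to 531311. It is the OE sham library with the highest RA number. Without it Cox8a rose, with a log2 fold change of 0.29 (limma adjusted p = 0.0104), and Cox6a1 had 0.19 (adjusted p = 0.172). In the 12 libraries of RA number 12 or below, both Cox8a (0.35, adjusted p = 0.0185) and Cox6a1 (0.33, adjusted p = 0.0233) rose in sham hearts, and 73 members fell, where 20.1% of all genes did. That restriction leaves out WT sham replicates 3 and 4 and OE sham replicate 4. For both genes these WT hearts held the highest WT sham values, and this OE heart held the lowest OE sham value. In infarcted hearts Cox8a and Cox6a1 had log2 fold changes of -0.08 and -0.19, and neither passed. The ratio of Cox8b to Cox8a went from 3.86 ± 0.23 to 2.01 ± 0.39 in sham and from 3.32 ± 0.37 to 1.92 ± 0.13 in infarcted hearts, log2 differences of -0.96 (SE 0.16) and -0.78 (SE 0.095), again without overlap.

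**Figure D3:**
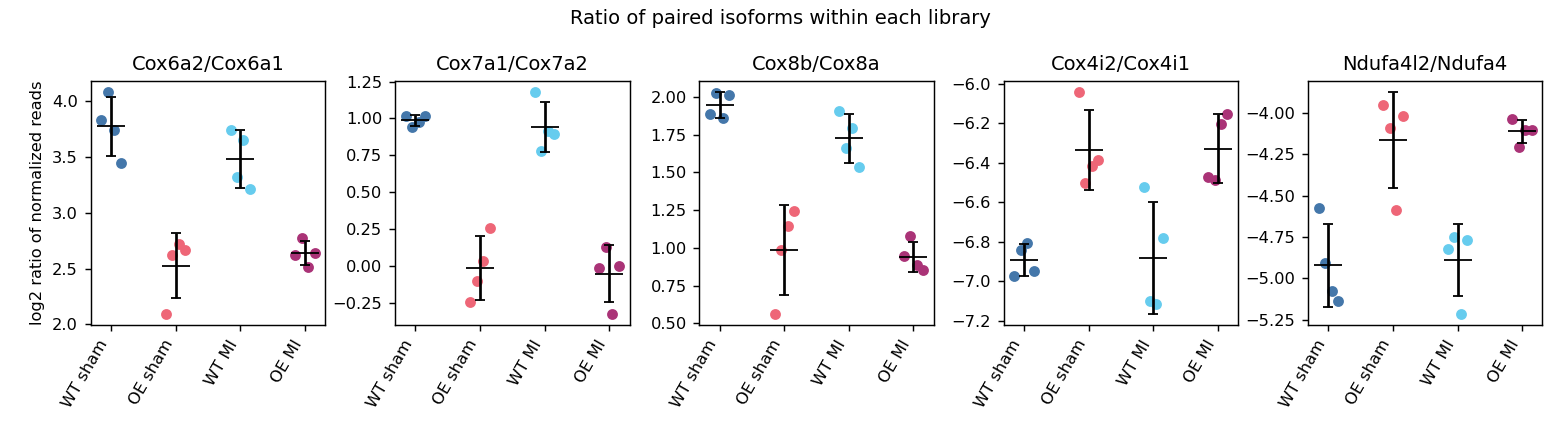
Log2 ratio of normalized reads of 5 isoform pairs in each library; points are libraries, bars the mean and SD of 4. In the 3 panels of muscle over common isoforms the OE libraries lie below all WT libraries, and in the remaining pair of panels the OE means lie above the WT means.

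Each of these 6 log2 ratios gave an exact permutation p of 0.0286, the smallest that 4 against 4 hearts can give, and 0.0914 after Benjamini-Hochberg adjustment over the 32 tests of 8 pairs in 4 comparisons, so none passes 0.05 by that test. A limma fit to the ratios over all 16 libraries, chosen after the data were seen and adjusted over the same 32 tests, gave adjusted p-values from 1.71e-06 to 0.000186 for the 6. In another pair of isoform couples the second gene fell and the first did not pass the test. Cox4i2, an isoform of subunit 4 typical of lung and induced by low oxygen, ran from 156 to 195 normalized reads in WT sham and from 120.4 to 164 in OE sham hearts, and did not pass in either setting, except that without WT MI replicate 1 it fell in sham hearts (-0.31, limma adjusted p = 0.0318). Its log2 ratio to Cox4i1 was higher by 0.56 in sham and 0.55 in infarcted hearts. Ndufa4l2, a paralog of Ndufa4 induced by low oxygen, ran from 344 to 451 in WT sham and from 305 to 451 in OE sham hearts (log2 fold change -0.01, limma adjusted p = 0.942), while Ndufa4 fell by 0.77, so that the log2 ratio was higher by 0.76 in sham and 0.78 in infarcted hearts. The exact p was 0.0571 for the Ndufa4l2 ratio in sham hearts, where the groups overlapped, and 0.0286 for the other 3. The ratio of Cox7a2l to Cox7a2 differed by 0.04 and 0.12 with SEs of 0.14 and 0.084, and the groups overlapped. The log2 ratio of Atp5g1 to Atp5g2 differed by -0.28 in sham hearts, without overlap (exact permutation p = 0.0286). In infarcted hearts it differed by -0.37, with overlap (exact permutation p = 0.0571). In the limma fit above, the ratios of Cox4i2 to Cox4i1, Ndufa4l2 to Ndufa4 and Atp5g1 to Atp5g2 passed in both settings. Their adjusted p-values in that fit ran from 0.000208 to 0.0110. Cox7a2l to Cox7a2 and Atp5g3 to Atp5g2 did not pass there.

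Markers of other muscle and of fat were counted too. The sum of 12 skeletal muscle markers, Ckm among them, ran from 34152 to 42138 normalized reads in WT sham and from 8635 to 11314 in OE sham hearts. Of the 12, 3 fell, a share near the 24.5% of all genes that fell. The sum does not show which of its genes carried the difference, and it was not taken as a measure of skeletal muscle. Brown fat markers are a list that itself contains Cox8b and Ppargc1a, both of which fell in sham hearts. They summed to between 15829 and 19583 in WT sham and between 10061 and 12329 in OE sham hearts, and the sum was not taken as a measure of brown fat. Ucp1, on the same list, did not follow the sum and ran from 0 to 599 in WT sham and from 25.7 to 1692 in OE sham hearts. The part of these in the isoform ratios was not tested.

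Cox6b2, a subunit 6b isoform best known from testis, was near the detection limit. It held 19.4, 62.5, 14.9 and 25.7 normalized reads in WT sham and 12.5, 11.1, 12.4 and 11.2 in OE sham hearts. The sham call (log2 fold change -1.09, limma adjusted p = 0.0339) rested on few reads and was lost without WT sham replicate 2 (-0.69, adjusted p = 0.129), and also without WT sham replicate 4 or any 1 of the 4 OE sham replicates (adjusted p 0.0555 to 0.0670). In infarcted hearts the log2 fold change was 0.01. Cox6b1, the common subunit 6b, fell by 0.35 in sham hearts, a call lost with library totals (adjusted p = 0.0896) and with RA numbers of 12 or below (0.152).

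The ERBB2 effect was then compared between hearts with and without an infarct. None of the 82 members passed the interaction of ERBB2 and MI in limma, where 0.0839% of all genes passed in either direction. At an unadjusted p below 0.05 the count was 0 as well, against 9.9% of all genes. The median interaction was 0.04 over the members and 0.01 over all genes. In edgeR and DESeq2 the count of members was 0 too. Across the 82 members the log2 fold changes in sham and in infarcted hearts, which come from separate libraries, had a Pearson r of 0.851, given as a description.

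**Figure D4:**
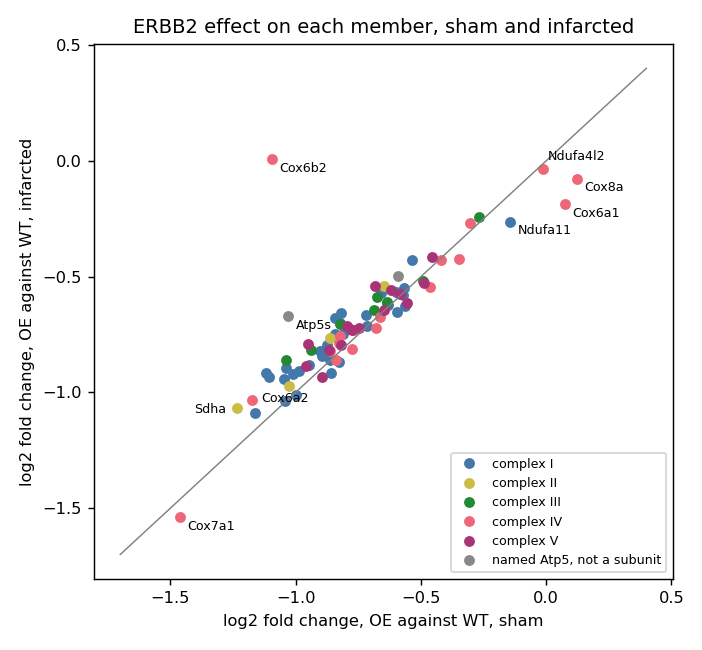
Log2 fold change of OE against WT in sham hearts (horizontal) and infarcted hearts (vertical) for each of the 82 members, coloured by complex; the line marks equal values. Cox7a1 lies lowest on both axes, at -1.46 and -1.54, and Cox6b2, a gene of few reads, lies far from the line, at -1.09 and 0.01.

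Infarction alone went with small differences. In WT hearts 5 members fell 2 weeks after MI and 0 rose; over all genes 2.09% fell. The median log2 fold change was -0.21 over the members and -0.03 over all genes. These 5 were Ndufs7, Ndufa8, Ndufs8 and Ndufa10 of complex I and Uqcrc1 of complex III. Uqcrc1 held 21178, 23245, 21029 and 21199.9 normalized reads in WT sham and 18829.6, 17609, 18773 and 15785 in WT MI hearts. The groups did not overlap, and the log2 fold change was -0.29 (SE 0.07, limma adjusted p = 0.0271). The authors' deposited table gives 18 members lower, against 2.56% of its genes. The count was 0 without WT sham replicate 2, WT sham replicate 4, WT MI replicate 2 or WT MI replicate 4, 2 without WT sham replicate 3 or WT MI replicate 3, 8 without WT sham replicate 1, 11 without OE sham replicate 4 and 15 without WT MI replicate 1. In the last 3 of these fits 1.0%, 1.92% and 5.2% of all genes fell, and in those with 0 or 2 members the share ran from 0.238% to 1.17%. Lung epithelial markers summed to no more than 43.8 normalized reads in each sham library, to between 22.9 and 10311 in the WT MI libraries and to between 34.4 and 7076 in the OE MI libraries, and with lung and thymus marker terms in the fit the count was 0 and the median -0.12.

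In OE hearts no member passed for MI against sham, where 0.00699% of all genes fell. In that comparison 25 members had an unadjusted p below 0.05, against 10.1% of all genes, edgeR and DESeq2 called 0, the authors' deposited table calls 0 of the members and gives 0.112% of its genes as lower, and the median was -0.17 over the members and -0.01 over all genes. With terms for lung and thymus marker levels the members' median was -0.05. Thymocyte markers summed to between 111 and 2396 normalized reads in OE MI hearts against no more than 141 in each other library. With these terms in the fit, 67 members fell in OE against WT infarcted hearts in place of 77, with a median of -0.68 against -0.72, and the calls over the whole table went from 2218 higher and 2336 lower to 396 and 664. For the isoform ratios the smallest exact p for MI against sham was 0.0857, in WT and in OE hearts.

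Genes that work with the chain were followed in lists, beside 24.5% of all genes tested that fell and 24.9% that rose in sham hearts. In sham hearts, 5 of 6 further chain genes that the symbol rule does not reach fell, among them Ndufab1, the acyl carrier protein of complex I (log2 fold change -0.96), Cyc1, cytochrome c1 of complex III (-0.78), and cytochrome c itself, Cycs (-0.65). The sixth, Atpif1, which encodes the inhibitor of ATP hydrolysis by complex V, rose from 1639 ± 48.6 to 3032 ± 465 normalized reads (n = 4 each), with a log2 fold change of 0.87 (limma adjusted p = 1.37e-05). Atpif1 rose in infarcted hearts too (0.72). Coenzyme Q synthesis genes counted 11 lower and 1 higher of 13, with a median of -0.80, from Coq10a, a coenzyme Q binding protein (-1.40), to Adck4, a kinase-like protein of that pathway (0.86), the member that rose.

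Assembly factors were counted by the complex they help to build, in sham hearts, where 24.5% of all genes tested fell and 24.9% rose. Of 14 for complex I, 12 fell and 0 rose (median -0.53), from Ecsit (-1.01) to Timmdc1 (-0.18), which did not pass. Complex II had 2 of 4 lower (median -0.30), from Sdhaf4 (-0.37) to Sdhaf2 (-0.24), which did not pass. Complex III had 5 of 6 lower (median -0.70), from Lyrm7, a chaperone of the Rieske protein (-1.55), to Uqcc3 (0.00), which did not pass. Complex IV had 16 of 22 lower and 1 higher (median -0.40), from Tmem177 (-0.91) to Cox19 (0.65), which rose in sham hearts. All 3 for ATP synthase fell (median -0.84), with Tmem70 at -0.91 and Atpaf2 at -0.46.

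Of 26 genes for protein import and the outer membrane, 12 fell and 1 rose in sham hearts, where 24.5% of all genes tested fell and 24.9% rose. The median of the 26 was -0.20, from the chaperonin Hspd1 (-0.84) to the channel Vdac2 (0.24). The ratio of the summed members to the sum of these genes was 10.7 ± 0.33 in WT against 8.52 ± 0.63 in OE hearts after sham surgery, and 10.5 ± 0.43 against 8.77 ± 0.53 after infarction. Of 20 regulators of respiratory genes, 13 fell and 3 rose in sham hearts, with a median of -0.45. Ppara, a receptor that activates fatty acid oxidation genes, fell from 2107 ± 364 to 751 ± 71.5 normalized reads (log2 fold change -1.48), and Ppargc1a, a coactivator of mitochondrial biogenesis, from 2486 ± 238 to 942 ± 116 (-1.40, limma adjusted p = 0.0132). Esrra, an estrogen-related receptor, and Tfam, which packages mitochondrial DNA, fell by 0.62 and 0.59 on the log2 scale. Nrf1 and Yy1 had log2 fold changes of 0.21 and -0.05 and did not pass, and Hif1a, the oxygen-sensing factor, rose by 0.97.

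**Figure D5:**
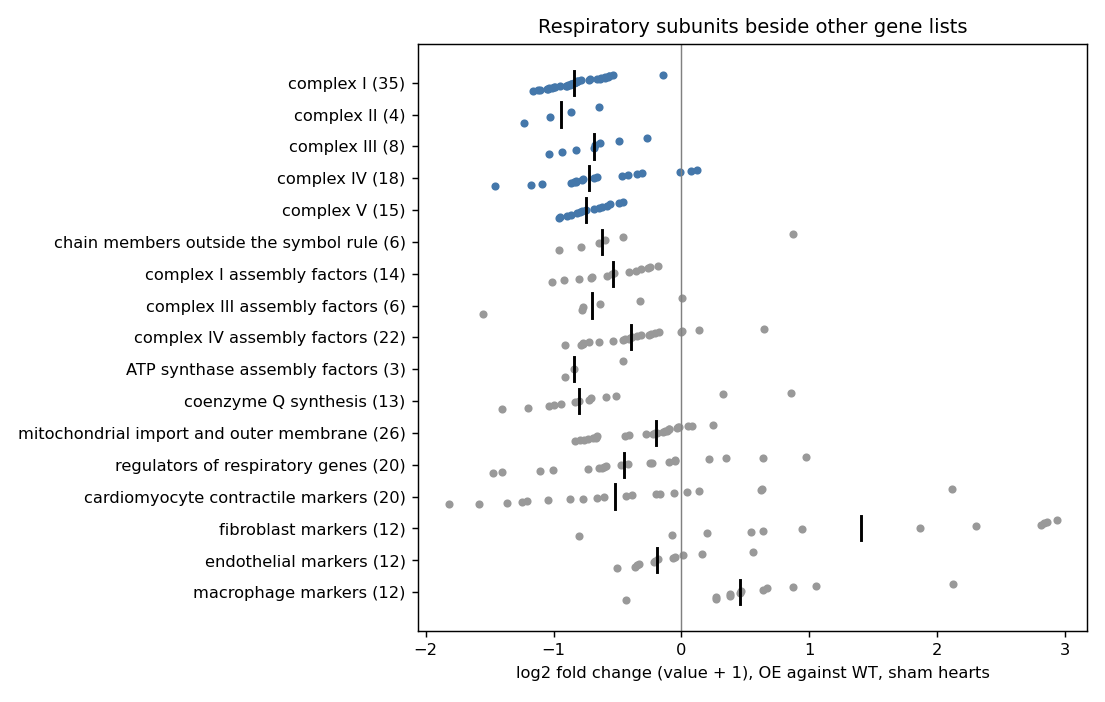
Log2 fold change of OE against WT sham hearts for the genes of 17 lists, with the number tested in brackets; each point is 1 gene, the 5 complexes are in blue and black lines give medians. The medians of the complexes lie between -0.94 and -0.68, that of import and outer membrane genes at -0.20 and that of fibroblast markers at 1.40.

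The members named Atp5 that are not subunits fell in both settings, Atp5s by 1.03 and 0.67 and Atp5sl by 0.59 and 0.50 on the log2 scale in sham and infarcted hearts. The level of a member and its change in sham hearts were weakly related across the 82 members (Spearman rho = -0.29), given as a description over genes that share the same libraries.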

How the data were processed

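PolyA RNA from 16 mouse hearts, 4 per group, was sequenced. Per the series' design text, single reads were trimmed with cutadapt, aligned to mm10 with TopHat 2.0.10, counted over RefSeq genes with HTSeq-count 0.6.1p1 and tested with DESeq2 1.6.3. TopHat2 and DESeq2 are named in the submitters' processing notes too. The authors deposited 1 column of signal per sample, which is the gene count over that library's size factor. Their table also gives a log2 fold change, a p-value and an adjusted p-value for 4 comparisons, per the file headers. These were used only where the authors' deposited table is named.

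Whole reads were recovered, since each value above 0 (100% of them) was a whole multiple of the smallest step in its column to within 0.001. Recovered reads served for library totals, edgeR, DESeq2 and voom, and edgeR's quasi-likelihood test called 3809 genes higher and 3258 lower in OE against WT sham hearts. The main test was limma (variance trend on) applied to log2(value + 1), over the 14298 genes that reached 10 in 4 or more libraries, with 1 mean per group over all 16 libraries and Benjamini-Hochberg adjustment over all genes of a comparison. A gene rose or fell at an adjusted p below 0.05. SE is the moderated standard error for genes. For isoform ratios SE comes from the SDs of both groups, and an exact 2-sided permutation test was used. The labels give 4 animals per group, and p-values measure the spread between these hearts. The rule for naming took members of isoform pairs, core subunits, the lowest and highest member of each complex in a comparison, and the lowest and highest gene of each other list in sham hearts. Other genes, such as the 5 members that fell with MI, were named after their values were seen. Values of some genes under this rule are not reported here.

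The members and lists were chosen with earlier results of these data known. Of the 21 other lists, 249 of 268 genes were found, and all members matched RefSeq. Only the gene fits with limma, edgeR, DESeq2 and voom were tested on simulated data, with far fewer genes changed than in these hearts. The isoform ratio, marker term and promoter steps were not tested in that way. Alternatives were library totals, other tools, filters and pseudocounts, a replicate block, RA numbers of 12 or below, lung and thymus terms, the 2 groups alone and leaving out each replicate. Python 3.11.15 with scipy 1.17.1, pandas 2.3.3 and matplotlib 3.10.9 was used, and R 4.3.3 with DESeq2 1.42.0, edgeR 4.0.16 and limma 3.58.1.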

Additional observations from a re-analysis of the deposited data

Results flagged for a closer look

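In 23 of 248 groups of 4 libraries (9.27%) 1 library stood apart, with a gap to its nearest neighbour, as a share of the range of the group, above the critical value of Dixon's test. Chance gives about 1 in 20 for independent groups. These groups share libraries and include sums and ratios of the same genes, so 9.27% cannot be set against that rate. WT MI replicate 4 accounted for 9 of these and was the lowest of its group each time, as in the summed level of all members, 650425 normalized reads. It was low for Atp5c1 (15531), Atp5f1 (13869), Atp5k (2699.6), Cox4i1 (15646), Ndufa12 (6688), Ndufv1 (7888), Sdhc (8046) and Uqcrh (5687). Without this library the count of members that fell with MI in WT hearts was 0, where 1.02% of all genes fell. The count was also 0 without WT sham replicate 2, WT sham replicate 4 or WT MI replicate 2.

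In WT sham hearts, replicate 1 was low for Cox7a2 (3973), Ndufa12 (7743) and Uqcrh (6107), and replicate 2 was high for Ndufv1 (12501) and Uqcrc1 (23245). WT MI replicate 1 was high for Cox4i2 (208), and WT MI replicate 3 was low in the log2 ratio of Ndufa4l2 to Ndufa4 (-5.21).

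In OE sham hearts, replicate 4 was low for Ndufs5 (53.4), and replicate 1 was low in the log2 ratio of Cox6a2 to Cox6a1 (2.10). In OE MI hearts, replicate 1 was high for Cox6b1 (7469.9), for Ndufb8 (5234) and in the log2 ratio of Atp5g1 to Atp5g2 (1.82), replicate 3 was low for Cox7a1 (2345) and replicate 4 was high for Atp5b (63456).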

How the results depend on the processing

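No ERBB2 call on a named member or complex reversed under any alternative run. The members that fell in sham hearts numbered 73 with RA numbers of 12 or below to 78, and 76 to 78 when 1 replicate was left out, 76 under voom. In infarcted hearts they numbered 67 to 77. Over the alternatives 16.6% to 26.9% of all genes fell in sham hearts and 4.64% to 18.8% in infarcted hearts. With library totals the median over the members was -0.65 in sham and -0.59 in infarcted hearts. The median interaction went from 0.04 to -0.09 with RA numbers of 12 or below.

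The count for MI in WT hearts, 5, moved to 3 with library totals, 22 in DESeq2, 2 in voom, 1 with the 2 groups alone, and 0 with RA numbers of 12 or below and with lung and thymus terms. The share of all genes that fell was 2.09%, and under these alternatives 0.49%, 4.69%, 0.567%, 1.13%, 0.0769% and 0.0% in that order. Leaving out 1 replicate gave 0 to 15. The cause was not tested. The counts for MI in OE hearts and for the interaction were 0 under each alternative.

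Same-numbered hearts did not deviate together (correlations of deviations from -0.34 to 0.27), so the numbers are not taken to pair the samples. A replicate block gave 77, 77, 4 and 0 members lower in the 4 comparisons, where 23.9%, 15.6%, 1.11% and 0.0% of all genes fell. The log2 ratios of the muscle to the common isoforms passed in limma for OE against WT hearts, with the block and without it. Their differences in sham and infarcted hearts cannot change between these fits, since each block holds 1 heart of each group, and were -1.25 and -0.85 for Cox6a2 to Cox6a1, -0.998 and -0.99 for Cox7a1 to Cox7a2, -0.96 and -0.78 for Cox8b to Cox8a. These tests borrow the spread of all 16 libraries, while the exact test with 4 against 4 hearts cannot fall below 0.0286.

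Lung and thymus terms also ended the infarcted-heart calls of Atp5d (-0.38), Atp5h (-0.50), Cox6b1 (-0.45) and Ndufs5 (-0.74), and RA numbers of 12 or below the sham call of Ndufs5 (-0.35). Among the named members, 2623 combinations of gene, comparison and alternative kept their side of the threshold, 31 lost a call and 4 gained one. Cox6b2 had few reads, and the part of depth in its calls was not tested.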
